A study of Macaca mulatta with 2 samples.

Results

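Cytosolic ribosomal protein genes were taken by symbol from the gene expression features of the deposited matrix. The symbol was RPL or RPS followed by a number, or RPLP1, RPLP2 or RPSA. RPS6K kinases and symbols with a pseudogene suffix were left out, and features were not screened for pseudogenes without such a suffix. The rule found 65 genes of 35432, of which 38 belong to the large and 27 to the small ribosomal subunit, and 6 of the 65 are paralogues of a core gene (RPL3L, RPL7L1, RPL10L, RPL22L1, RPL36AL and RPS27L). The cells were circulating CD4+CD8+ double-positive (DP) T cells of 1 untreated rhesus monkey (Macaca mulatta), 6 years old, and were isolated from fresh peripheral blood mononuclear cells with CD4 beads and then with CD8 beads. The same cells gave a 5′ droplet RNA library and a second library that counts antibody tags for surface CD4 and CD8, so there was 1 sample and no replicate. No test was possible, and groups of cells were not compared as replicates. Every 95% interval below covers counting error only, of pooled UMIs or, for a share of cells, of cells taken as independent draws. No interval covers the variation between animals, and those of pooled UMIs leave out the variation between cells too. Over all CD3E+ cells the SD of the share between cells was 7.06 percentage points, against 0.739 from binomial counting.

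Each ribosome carries 1 copy of almost every ribosomal protein, and cells make these proteins in matched amounts. Their mRNAs are among the most abundant in lymphocytes, and most begin with a 5′ terminal oligopyrimidine (TOP) tract, a C and a short run of C and T bases through which mTOR signalling and LARP1 set their translation. A few genes have paralogues that can replace a core protein in the ribosome, such as RPL22 and RPL22L1, and RPL22 is needed for the development of alpha beta T cells in mice.

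The annotated starts of 8 members are shown because they include the 4 members with most UMIs, RPL22 and the paralogues that stood apart in the comparisons. Sequences are RefSeq annotation on the Mmul_10 genome, 5′ to 3′ on the strand of the gene, with 10 bases before the annotated first base of the transcript and 20 from it on. Capitals begin at the C nearest to the annotated start, within 10 bases of it, that at least 4 further C or T bases follow, and go on to the end of that run; C and T bases before this C are in lower case.
RPL10 (chrX:150319620-150319649, + strand): gtgggagcgcCCCTTTCCCTTCggcgcggt
RPS18 (chr4:136234093-136234122, - strand): cacttCTCCTagatcgctccgcctcttcct
RPS12 (chr4:36365879-36365908, + strand): ctgatgaggcCTCTTTCCCTgccgccgcgg
RPS26 (chr11:55598272-55598301, + strand): aggcatcgcCTCCTTTCTTCggtccgtaag
RPL22 (chr1:218328542-218328571, + strand): gctcacctccCTTTCTaactccgctgcggc
RPL22L1 (chr2:75781137-75781166, - strand): catCCCTCgcgtgcgtccgtatccgggagc
RPS27L (chr7:39601819-39601848, - strand): agccgCCTCTatcccggaagttgatgccga
RPL36AL (chr7:111810378-111810407, - strand): gcctattggttctcagtactgtcgctcagg

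Counted from the annotated start on, RPL10 and RPS12 had long pyrimidine runs, of 12 and 10 bases, and RPL22 had one of 6 bases. In RPS26 the stretch in capitals had 11 bases and began 1 base upstream. In the core gene RPS18 it had 5 bases and began 5 bases upstream, as in the paralogue RPS27L. In RPL22L1 it had 5 bases and began 7 bases upstream, and RPL36AL had none in the window. Of the 63 members that matched a RefSeq gene by symbol, 18 (28.6%) had such a run at the start of the transcript taken for the gene, against 2.92% of 20789 protein-coding genes. Within 10 bases on either side the shares were 68.3% and 29.8%. None of the 6 paralogues had the run at the start, and 3 of them (50%) had it within 10 bases. These are letters at annotated starts, many of which are predictions, and the start used in these cells was not measured. The 63 matched genes lay on 17 chromosomes, with at most 9 on 1 chromosome, and their mRNAs had a median of 602 bases (276 to 1785).

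The matrix held 7923 barcodes, and 7601 remained after limits on genes per cell (200 to 4000) and on mitochondrial UMIs (20% or less). A UMI, or unique molecular identifier, stands for 1 captured RNA molecule. CD3E, a chain of the CD3 complex that defines T cells, had a UMI in 7311 of them (96.2%), and these CD3E+ cells with 30113654 UMIs and a median of 3656 UMIs were analysed. Monocyte and platelet markers were at 3.45 and 1.26 UMIs per 1000000 UMIs (CPM) in sum, against 3199.7 CPM for 5 T cell genes. B cell genes were at 75.8 CPM and red cell genes at 243.4 CPM. A further 86 kept cells had no UMI of the CD3 genes but 3 or more of B cell genes, and gave the level of free RNA. At a median of 4137.5 UMIs they had a CCR7 UMI in 18.6% of cells, a GZMB UMI in 8.14% and at least 3 GZMB UMIs in 2.33%, and B cells can express CCR7 themselves. EOMES, TRAV10 and MKI67 had 0 of 86 cells, which allows a share of up to 3.49%. In the CD3E+ cells the shares were 29.6% for CCR7, 44.8% for GZMB, 37.9% for GZMB with at least 3 UMIs, 4.87% for EOMES, 3.38% for TRAV10 and 2.80% for MKI67. For TRAV10 and MKI67 these shares lie below the 3.49% allowed, so the 86 cells cannot show that they exceed free RNA.

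Ribosomal protein genes held 24.2% of the UMIs of the CD3E+ cells (95% exact binomial interval, 24.21 to 24.24). RPL10, which is incorporated late into the large subunit, was the most abundant member with 9602 CPM, in 99.1% of cells. It was followed by RPS18 (8110 CPM), RPS12 (8088), RPS26 (8008), RPL19 (6853), RPLP1 of the ribosomal stalk (6551), RPS20 (6504) and RPS7 (6470). Each UMI counts a molecule from its 5′ end, so these levels were not divided by length. Levels were spread over many genes: the top 10 held 30.1% and the top 20 held 53.4% of member UMIs, 56 members exceeded 1000 CPM, and 48 of the 100 most abundant genes were members.

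Of the 65 members, 63 had a UMI and 61 reached 100 CPM. RPL3L and RPL10L, paralogues known from muscle and testis, had 0 UMIs, which allows a level of up to 3 UMIs in the 30113654. RPL7L1 had 7.74 CPM. RPS27A, which encodes ubiquitin fused to a small subunit protein, had 33.5 CPM under its name, while another feature that carries no symbol but the same gene name by its identifier had 6945 CPM. The value under the name is therefore not the level of the gene as a whole.

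No feature was named for 18 of 77 core ribosomal protein genes, among them RPL11, RPL14, RPL17, RPL21, RPL29, RPL30, RPL34, RPL36, RPL36A, RPL37, RPL41, RPLP0, RPS10, RPS15A, RPS19, RPS25 and RPS27. Gene identifiers gave 12 of these through features without a symbol or with another one. The most abundant were RPS19 with 7668 CPM, RPL37 with 7279 CPM and RPL30 with 7097 CPM, all at the level of the top members. All 17 features reached in this way held 4.98% of UMIs, and with them the share was 29.2%. Ribosomal protein genes also have many processed pseudogenes, and reads that cannot be placed at 1 locus are lost in counting, so levels between genes are not on 1 scale.

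The share was higher in cells with CCR7, the chemokine receptor of naive and central memory T cells that guides them to lymph nodes, and lower in cells with GZMB, which encodes the cytotoxic protease granzyme B. The 2163 CCR7+ cells had 27.8% (27.79 to 27.84) and the 5148 cells without a CCR7 UMI had 22.3% (22.24 to 22.27). It did not climb with CCR7 UMIs: cells with 1, 2 and at least 3 had 27.8%, 28.2% and 27.5%. For GZMB the share was lower at each level, from 27.1% in 4038 cells with 0 UMIs to 24.4%, 21.7%, 20.9% and 18.9% in cells with 1, 2, 3 to 9 and at least 10 UMIs. The 2770 cells with at least 3 GZMB UMIs had 19.6% (19.62 to 19.67). The CCR7 difference was smaller once cells with a UMI of any of the other 4 markers were left out of both groups, at 28.8% against 26.1% (log2 0.14 in place of 0.32).

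**Figure D1:**
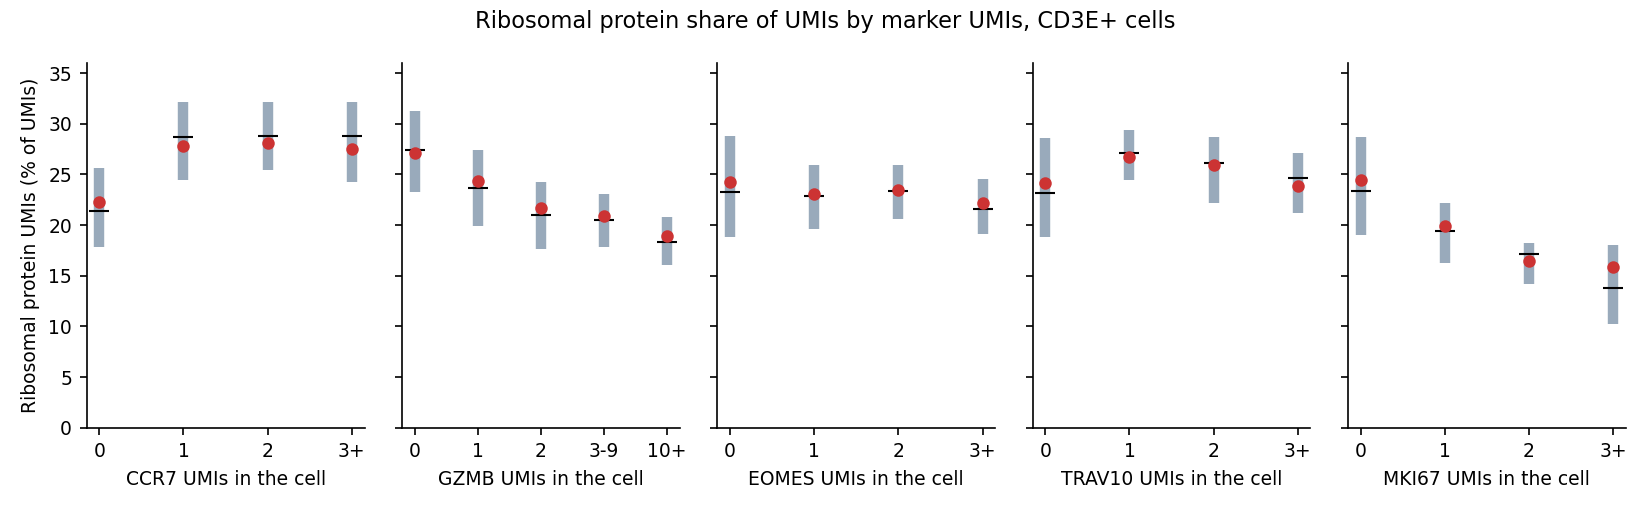
Share of UMIs in ribosomal protein genes (y axis, percent) by the UMIs of 5 markers in the cell (x axis) among 7311 CD3E+ cells. Red points are the share of summed UMIs, black dashes the median cell and bars the first to the third quartile of cells; the red points are lower at each step of GZMB (27.1% to 18.9%) and of MKI67 (24.5% to 15.8%), and alike over 1 to 3 or more CCR7 UMIs.

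What differed in absolute UMIs depended on the marker. The median CCR7+ cell had 1288 member UMIs and 3071 other UMIs, against 727 and 2681 without CCR7. The median cell with at least 3 GZMB UMIs had 630 member UMIs and 2668 others, against 1115.5 and 2897 without GZMB. The 2 groups of each marker thus differed mostly in member UMIs and less in all other UMIs. All UMIs had medians of 4377 with and 3451 without CCR7, and these values were not matched for depth. The cytotoxic gene list, GZMB included, held 0.76% of UMIs in the GZMB group and 0.0449% without GZMB, and mitochondrial genes held 5.21% and 5.31%. For CCR7 the mitochondrial shares were 5.17% and 5.34%, and B cell genes were at 132.3 CPM in CCR7+ cells and 45.0 CPM in the others. Red cell genes were at 7.88 CPM in CCR7+ cells and 372.3 CPM in the others, and at 107.1 CPM with at least 3 GZMB UMIs and 350.3 CPM with none. The part of all these genes in the differences was not tested.

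Both markers together gave the widest difference. The 1898 CCR7+ cells with no GZMB UMI (CCR7+GZMB-) had 28.4% (28.37 to 28.43), and the 2602 cells with no CCR7 UMI and at least 3 GZMB UMIs (CCR7-GZMB+) had 19.0% (18.93 to 18.98). A cell with 0 CCR7 UMIs may still express CCR7. Of the CD3E+ cells with at least 2000 UMIs, 2087 had a CCR7 UMI, and 1338 did after random thinning to 2000 UMIs. How many such cells the classes without CCR7 hold was not tested. The 2140 cells with neither marker (CCR7-GZMB-) had 25.8%, between the first 2 classes, and 168 cells with both had 24.4%. These 168 cells had a median of 7420 UMIs, far above the other classes (3262 to 4286), and doublets of the 2 classes would look alike; the part of doublets was not tested. Few single cells of the second class lay above the median CCR7+GZMB- cell (29.2%): 9 of 2602 CCR7-GZMB+ cells (0.346%, exact binomial interval 0.158 to 0.656). The distributions still overlapped, and the bin from 22% to 24% held 301 CCR7-GZMB+ and 113 CCR7+GZMB- cells. Conversely, 1755 of 1898 CCR7+GZMB- cells (92.5%) lay above the median of the CCR7-GZMB+ cells (19.0%). The SD between cells was 6.68 percentage points in the first class and 4.33 in the second, against 0.729 and 0.700 points that binomial counting alone would give.

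**Figure D2:**
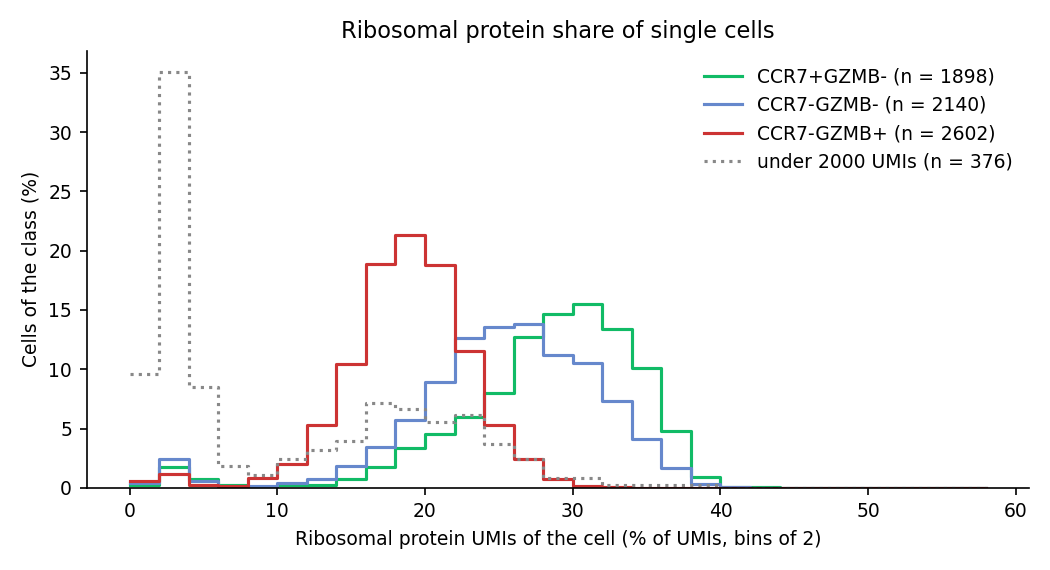
Distribution of the ribosomal protein share of single cells (x axis, percent of the cell's UMIs in bins of 2; y axis, percent of the cells of the class). Solid lines are 3 marker classes and the dotted line the 376 CD3E+ cells under 2000 UMIs of any class; the median cell is at 19.0% in the CCR7-GZMB+ class and 29.2% in the CCR7+GZMB- class, and cells under 2000 UMIs have a separate peak of low values.

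MKI67, a nuclear protein of dividing cells, marked the lowest shares among the 5 markers. The 205 MKI67+ cells had 18.9% (18.79 to 18.93) and the 7106 others 24.5% (24.43 to 24.47). The share was lower at each level, with 19.9% in 163 cells with 1 UMI, 16.4% in 21 cells with 2 and 15.8% in 21 cells with at least 3. Over all CD3E+ cells, median member UMIs per cell were alike, at 867 in MKI67+ cells and 856 in the others. All other UMIs differed, with medians of 4054 and 2759. The same order of shares held within each class: 22.5% in 25 MKI67+ and 28.6% in 1873 MKI67-zero CCR7+GZMB- cells, 19.9% in 47 and 26.0% in 2093 CCR7-GZMB- cells, and 16.6% in 108 and 19.1% in 2494 CCR7-GZMB+ cells. Member UMIs were not alike within the classes. Their medians in MKI67+ and MKI67-zero cells were 1571 and 1253, 1107 and 991, and 681 and 616, in the same order of classes. Other UMIs had medians of 5353 and 2965, 3867 and 2808, and 3727.5 and 2602.5. MKI67 was at 10.2 CPM over all CD3E+ cells, so a cell with more UMIs has more chance to show it. The MKI67+ cells had a median of 5008 UMIs against 3634.5 in the others, and none of these medians was matched for depth.

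EOMES, a transcription factor of effector and memory T cells, and the T cell receptor segment TRAV10 went with small differences. Invariant natural killer T cells use TRAV10 in their alpha chain, but a TRAV10 UMI alone does not identify such cells. The 356 EOMES+ cells had 23.1% (23.03 to 23.16) against 24.3% (24.27 to 24.30), and the 247 TRAV10+ cells 24.9% (24.86 to 25.02) against 24.2% (24.18 to 24.21). Both depended on the class of the cell. Among CCR7+GZMB- cells the EOMES+ cells had 24.2% and the EOMES-zero cells 28.6%, but among CCR7-GZMB+ cells they had 20.6% and 18.9%. TRAV10+ cells had 21.6% against 18.9% within the CCR7-GZMB+ class, and 28.2% against 28.4% within the CCR7+GZMB- class. EOMES+ cells therefore lay closer to the middle of the range in the CCR7+GZMB- and CCR7-GZMB+ classes, and TRAV10+ cells in the CCR7-GZMB+ class. Within the CCR7-GZMB- class, 102 EOMES+ cells had 24.4% against 25.9%, and 93 TRAV10+ cells had 26.0% against 25.8%. Without cells that had a UMI of another of the 5 markers, TRAV10+ and TRAV10-zero cells both had 26.1%. With 3 or more TRAV10 UMIs, the share was 23.9% in 150 cells, below the 26.7% of 43 cells with 1 UMI.

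The share also differed with UMIs per cell, and the total holds the member UMIs themselves. Quartiles of CD3E+ cells by UMIs, with bounds at 3001, 3656 and 4720 UMIs, had 21.2%, 23.0%, 25.4% and 25.2%. Cytotoxic genes had 0.56% of UMIs in the lowest and 0.18% in the highest quartile. B cell genes had 35.7 and 159.2 CPM, and red cell genes 66.1 and 526.5 CPM, in the lowest and the highest quartile; the part of these in the difference was not tested. The highest against the lowest quartile differed by 0.25 on the log2 scale. When cells were ordered by their non-member UMIs the difference was 0.0050, with 23.7% and 23.6%. Non-member UMIs are part of the total too, and ordering by them favours a lower share in the highest quartile. Neither order is free of the share itself.

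Cells under 2000 UMIs were unlike the rest. They had 12.4% (12.30 to 12.49), and of these 376 cells 211 (56.1%) had a share below 10%, against 7 of 1445 cells (0.484%) at 2000 to 3000 UMIs. In the 211 cells the median share was 2.81%, the median mitochondrial share 10.6% and the median number of genes 681. The other cells under 2000 UMIs had medians of 19.7%, 3.55% and 773. Over all depths 245 CD3E+ cells (3.35%) had a share below 10%. Cells of low member share were thus mostly a group of shallow cells with more mitochondrial UMIs, and what these cells are was not tested.

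From 2000 UMIs on, CCR7-GZMB+ cells were below CCR7+GZMB- cells at each depth. Between 2000 and 10000 UMIs, CCR7-GZMB+ cells had 19.5%, 19.1%, 17.0%, 19.0% and 20.8% in bins of 2000 to 3000, 3000 to 4000, 4000 to 5000, 5000 to 7000 and 7000 to 10000 UMIs, and CCR7+GZMB- cells had 28.1%, 29.2%, 30.2%, 28.7% and 26.8%. The widest gap was at 4000 to 5000 UMIs (log2 -0.83). At 10000 or more it was -0.29, with only 16 CCR7-GZMB+ cells. In that bin 25 CCR7-GZMB- cells had 24.6% (24.42 to 24.72) and 51 CCR7+GZMB- cells had 24.5% (24.41 to 24.62). The SDs between these cells were 6.85 and 4.87 percentage points, which the intervals do not cover. Under 2000 UMIs the order was the opposite, with 12.9% in 113 CCR7-GZMB+ and 8.92% in 72 CCR7+GZMB- cells (log2 0.53), where the median CCR7+GZMB- cell had 3.86%.

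**Figure D3:**
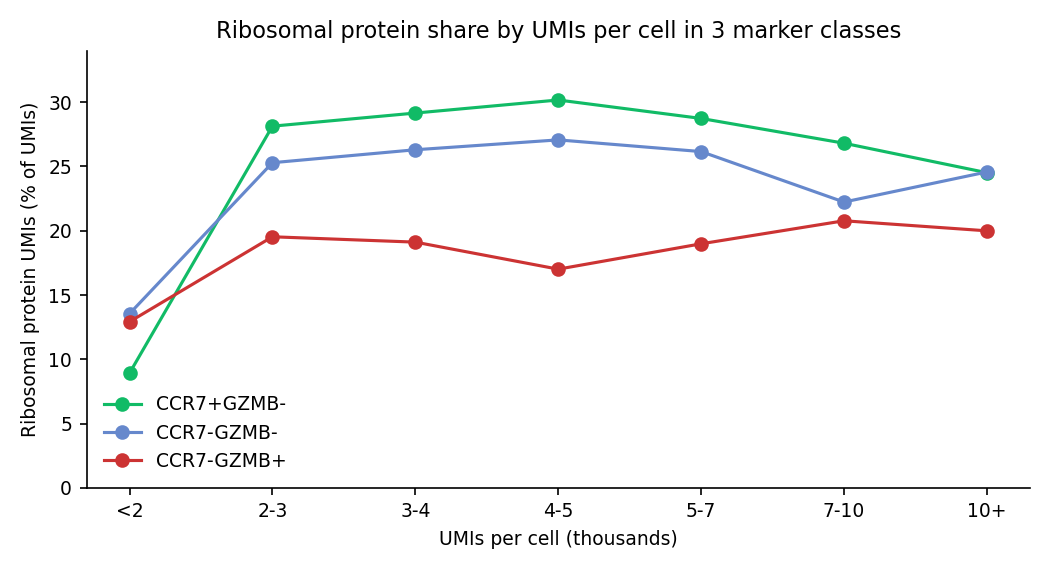
Ribosomal protein share of summed UMIs (y axis, percent) by UMIs per cell (x axis, 7 bins, labelled in units of 1000) in 3 marker classes; bars are 95% exact binomial intervals, smaller than most points. From 2000 UMIs on, CCR7-GZMB+ cells stay between 17.0% and 20.8%, below both other classes, and below 2000 UMIs the CCR7+GZMB- cells are lowest at 8.92%.

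Single members were compared by their CPM plus 10, with a difference of at least 1.2-fold counted as past the fold, among the 1068 genes with at least 100 CPM. By CCR7, 41 of 61 members were higher past the fold, where 11.1% of all genes tested were, and 1 was lower, where 41.9% were. The median log2 ratio was 0.32 over members and -0.20 over all genes. By GZMB, 54 of 61 members were lower (16.0% of all genes) and 1 was higher (48.6%), with medians of -0.47 and 0.25. Large and small subunit genes did not separate, with medians of -0.47 in both. By MKI67, 46 members were lower (13.2%) and 1 was higher (39.5%), with medians of -0.37 and 0.17. By UMIs per cell, 32 members were higher (9.55%) and 0 lower (41.4%). The UMIs that set these quartiles include those of the members, and ordering by non-member UMIs took the share ratio from 0.25 to 0.0050. Neither this count nor the ratios of single members by UMIs per cell were repeated in that order. By EOMES, 0 were higher (6.37%) and 1 was lower (4.03%), and by TRAV10 0 were higher (3.65%) and 0 lower (7.02%). Most of these differences were under 1.5-fold. At that size 1 member was higher by CCR7 (1.69% of all genes tested) and 0 lower (12.5%), 8 were lower by GZMB (4.87%) and 0 higher (20.7%), 0 were lower by MKI67 (0.843%) or EOMES (0.655%), and 1 was higher by UMIs per cell (1.5%). Relative to the UMIs of all members in place of all UMIs, few members passed 1.2-fold. By CCR7 there were 1 higher (1.78% of all genes) and 2 lower (77.0%), by GZMB 4 higher (80.9%) and 2 lower (2.90%), by MKI67 6 higher (78.7%) and 0 lower (0.749%), and by UMIs per cell 2 higher (2.15%) and 3 lower (73.1%). With no minimum level, 1 of the 65 members was higher (2.63% of 35432 genes) and 1 lower (3.74%) by TRAV10. Shares of one total are not free of each other: where members take up more of it, other genes must have less. The CCR7, GZMB and MKI67 comparisons share most of their cells and are not separate evidence.

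**Figure D4:**
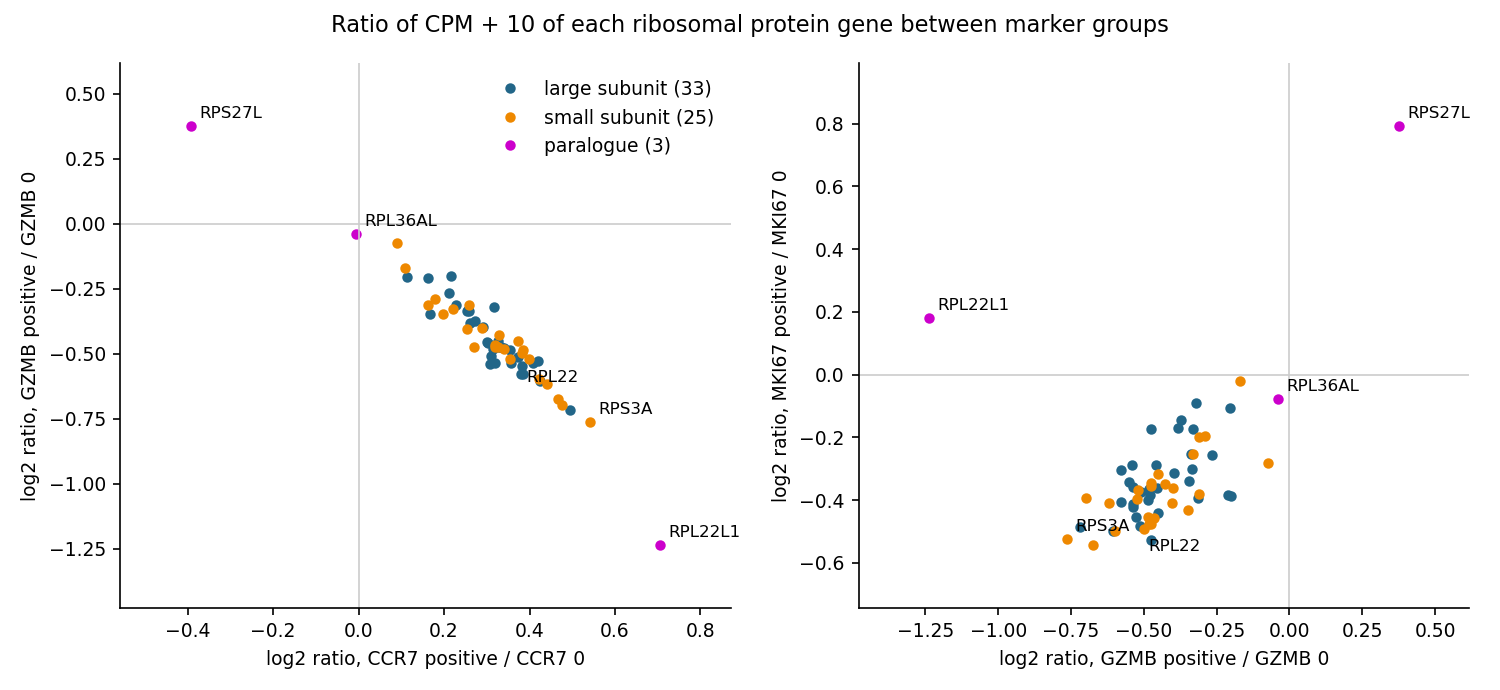
Log2 ratio of CPM plus 10 of the 61 ribosomal protein genes with at least 100 CPM, by CCR7 (x) and GZMB (y) on the left and by GZMB (x) and MKI67 (y) on the right; each point is a gene, coloured by subunit or as a paralogue, and grey lines mark 0. Core genes form 1 band while RPL22L1, RPS27L and RPL36AL stand apart; the comparisons share cells.

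Core members differed in size more than in direction. The core member with the widest differences was RPS3A, of the small subunit, with 8113 CPM in CCR7+GZMB- cells, 6790 CPM in CCR7-GZMB- cells and 4116 CPM in CCR7-GZMB+ cells. Its log2 ratio was 0.54 by CCR7 and -0.76 by GZMB, and RPL10A followed with 0.49 and -0.72. By MKI67 the lowest ratios were those of RPS13 (-0.54), RPL38 (-0.53) and RPS3A (-0.53). At equal depth the ratio of RPS3A between CCR7-GZMB+ and CCR7+GZMB- cells was -0.99 (-1.04 to -0.93) for cells of 2000 to 3000 UMIs, -1.09, -1.24 and -0.97 in the next 3 bins, -0.59 (-0.65 to -0.54) for 7000 to 10000 UMIs and -0.53 (-0.64 to -0.42) from 10000 on. Under 2000 UMIs it had the opposite sign, 0.32 (0.09 to 0.56). By UMIs per cell, RPL23A (0.56) and RPL10A (0.51) had the highest core ratios, and RPL19 (-0.05) the lowest. By EOMES the lowest after RPL22L1 were RPS24 (-0.26) and RPS3A (-0.23), and RPS29 was at 0.03. By TRAV10 the members lay between -0.13 (RPL27A) and 0.13 (RPS12), with RPL5 at -0.06, RPL3 at 0.12 and RPS6 at 0.11.

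The paralogues did not follow the core genes. RPL22 had 3380 CPM (3341.9 to 3418.8) in CCR7+GZMB-, 2977 CPM in CCR7-GZMB- and 2140 CPM in CCR7-GZMB+ cells. RPL22L1 had 642.5, 557.2 and 212.7 CPM, a steeper course than RPL22, and per 100 RPL22 UMIs there were 19.0, 18.7 and 9.94 RPL22L1 UMIs. RPL22L1 was detected in 79.3% of CCR7+GZMB- and 43.8% of CCR7-GZMB+ cells. It had the highest ratio by CCR7 (0.71), the lowest by GZMB (-1.24) and EOMES (-0.42), and the highest by UMIs per cell (1.36).

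RPL22L1 also went with depth within a class and with MKI67. There were 9.77 RPL22L1 UMIs per 100 RPL22 UMIs in CCR7+GZMB- cells of 2000 to 3000 UMIs and 23.9 at 5000 to 7000 UMIs, and 7.47 and 12.7 in CCR7-GZMB+ cells. The ratio of RPL22L1 between CCR7-GZMB+ and CCR7+GZMB- cells varied with depth. It was -1.15 (-1.40 to -0.89) for 2000 to 3000 UMIs, -1.43 and -1.80 in the next 2 bins, -1.52 (-1.69 to -1.34) for 5000 to 7000 UMIs and -0.88 (-1.08 to -0.69) for 7000 to 10000 UMIs. From 10000 UMIs on it was -0.37 (-0.70 to -0.06) in 16 and 51 cells, where RPL22 also had -0.37 and the 2 classes had 25.6 and 25.5 RPL22L1 UMIs per 100 RPL22 UMIs. Under 2000 UMIs it was 0.32 (-0.97 to 1.74). In MKI67+ cells the 2 genes went apart. RPL22 had 2846 CPM in cells with 0 MKI67 UMIs, 2189 with 1 and 1641 with at least 2, whereas RPL22L1 had 458.8, 460.8 and 673.8 CPM. Per 100 RPL22 UMIs this was 16.1, 21.0 and 41.1, though only 42 cells had at least 2 MKI67 UMIs. MKI67+ cells also had more UMIs, with a median of 5008 against 3634.5, and these values were not matched for depth. By class, MKI67+ and other cells had 34.7 and 18.7 (CCR7+GZMB-), 31.1 and 18.4 (CCR7-GZMB-) and 19.0 and 9.46 (CCR7-GZMB+). Among cells with both CCR7 and GZMB the values were 19.3 in 10 MKI67+ cells and 17.6 in 158 others. Within the CCR7-GZMB+ class RPL22L1 had 348.4 CPM (300.7 to 401.4) in MKI67+ and 204.2 CPM (194.9 to 213.9) in other cells.

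RPS27L, a paralogue of RPS27 that p53 can induce, went the other way. It had 94.0 CPM (87.7 to 100.6) in CCR7+GZMB-, 118.5 CPM in CCR7-GZMB- and 144.0 CPM (136.5 to 151.9) in CCR7-GZMB+ cells. It was the one member past the fold upward by GZMB (0.38) and by MKI67 (0.79), and the one downward by CCR7 (-0.39). Of all genes tested, 48.6% were higher past the fold by GZMB, 39.5% were higher by MKI67 and 41.9% were lower by CCR7. These directions set RPS27L apart from the other members but not from genes at large. In cells with 0, 1 and at least 2 MKI67 UMIs it had 116.3, 165.0 and 319.6 CPM. RPS27, at 3069 CPM through its identifier, had 0.25 by CCR7 and -0.31 by GZMB, like the core genes. RPL36AL, a paralogue of RPL36A, had 1267, 1301 and 1247 CPM in the 3 classes and ratios of -0.01 by CCR7 and -0.04 by GZMB. At equal depth its ratio between CCR7-GZMB+ and CCR7+GZMB- cells was 0.58 (0.12 to 1.05) under 2000 UMIs, -0.30 (-0.41 to -0.18) for 2000 to 3000, -0.19 (-0.26 to -0.12) for 3000 to 4000 and -0.03 for 4000 to 5000 UMIs, and 0.09, 0.07 and 0.08 in the bins above. RPL36A was not a named feature, and these near-identical genes may share reads.

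**Figure D5:**
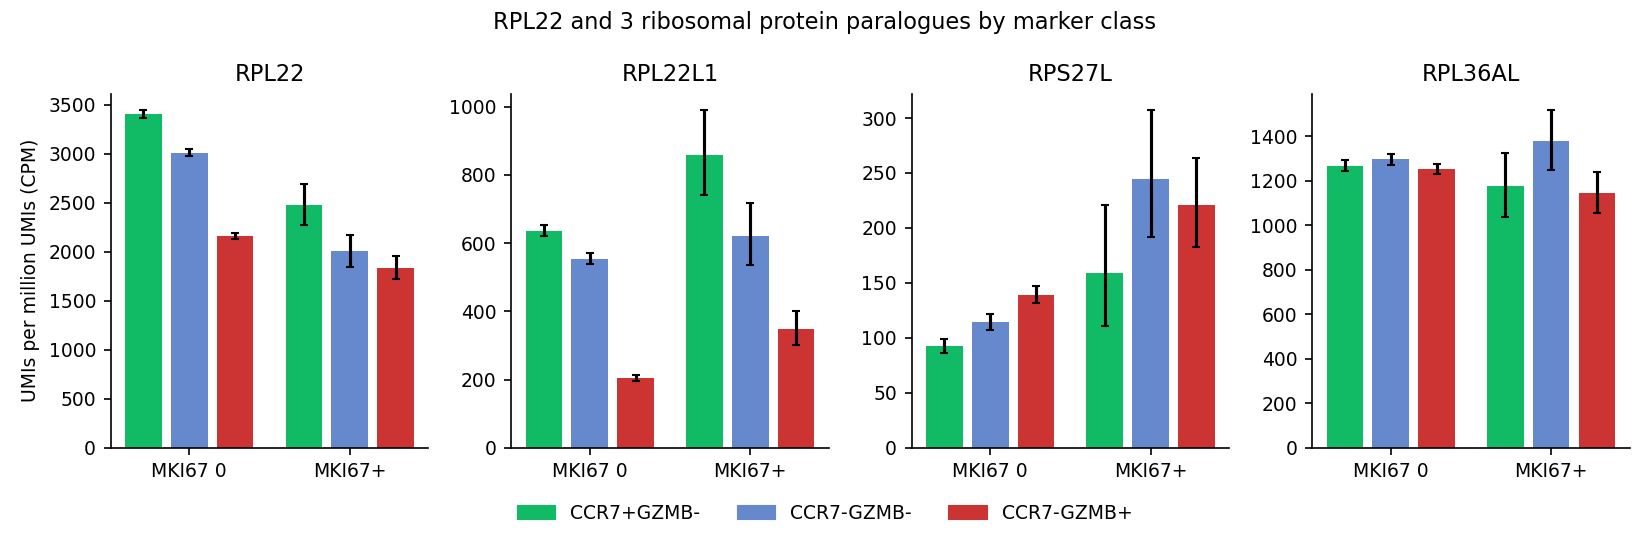
CPM (y axis, starting at 0 with its own scale per panel) of RPL22 and 3 paralogues in 3 marker classes, with 0 MKI67 UMIs (left 3 bars) and with MKI67 (right 3 bars); error bars are 95% exact Poisson intervals. RPL22L1 is highest in CCR7+GZMB- cells with MKI67 (857.9 CPM), and RPS27L is higher with MKI67 in each class.

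Other genes of translation were not alike. Beside the counts that follow, 16.0% of all genes tested were lower and 48.6% higher past the fold by GZMB (median 0.25), and 11.1% were higher by CCR7. The 4 elongation factor genes tested, EEF1A1, EEF1B2, EEF1G and EEF2, were all lower past the fold by GZMB, with a median of -0.50 and EEF1A1 at -0.60, and 2 of 4 were higher by CCR7. Of 16 initiation factor genes, 4 were lower and 2 higher by GZMB (median -0.12), with EIF3M at -0.43 and EIF3I at 0.45. Of 10 ribosome-associated and other TOP genes, 4 were lower and 0 higher, with TPT1 at -0.54 and RACK1, a protein of the small subunit, at -0.55. FAU, which encodes a ubiquitin-like protein fused to a small subunit protein and which the rule does not name, was level by GZMB (-0.05) but -0.39 by MKI67. Of 6 ribosome biogenesis genes, 1 was lower and 1 higher (NOP10, 0.41). The 4 mitochondrial ribosomal protein genes tested, MRPL10, MRPL11, MRPL23 and MRPL51, had medians of -0.14 by CCR7, 0.16 by GZMB and 0.23 by MKI67, beside -0.20, 0.25 and 0.17 over all genes tested, and 0 were past the fold by CCR7 or GZMB.

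The antibody tags gave a view of the cells that the rule did not use. From the lowest to the highest quartile of CD4 tag UMIs the share was 21.5%, 23.5%, 25.2% and 25.5%, and for CD8 tag UMIs 24.8%, 23.1%, 23.8% and 25.0%. Quartiles of the CD4 tag differed in makeup, with 0.61% of cytotoxic gene UMIs in the lowest and 0.18% in the highest. Within CCR7+GZMB- cells the lowest CD4 tag quartile had 28.9% and the highest 27.9%, and within CCR7-GZMB+ cells 18.4% and 20.7%. The same within-class pattern was seen for the CD8 tag, at 29.2% and 27.8%, and 18.4% and 19.6%. Cells with more tag UMIs also had more RNA UMIs, with medians of 3065 and 4871.5 between the lowest and highest CD4 tag quartiles. The tag quartiles were not matched for depth, and the part of depth in these differences was not tested.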

How the data were processed

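RNA and surface tags of 1 sample of circulating CD4+CD8+ DP T cells were measured. The authors made the values with Cell Ranger 3.1.0, which uses STAR 2.5.1b, on Mmul_10, and analyzed them with Seurat 3.1.3, and what they deposited is 1 matrix of UMI counts, not normalized, with genes and tags as rows and barcodes as columns. No annotation release is named in the sources used here. Cells were kept if they had 200 to 4000 genes and if mitochondrial UMIs (13 named genes and 2 features without a symbol listed among them) were 20% or less, and those with a CD3E UMI were analysed. No doublet caller was run, and an alternative leaves out the 5% of cells with most UMIs and cells with a B cell gene UMI.

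Counts were summed over the cells of a group and divided by all gene UMIs. A marker group held cells with at least 1 UMI (GZMB, at least 3) and was compared with cells at 0. Ratios of single genes used CPM with a pseudocount of 10 for genes with at least 100 CPM over CD3E+ cells, and 1.2-fold was the size counted. With 1 sample there was no test. Intervals are exact at 95%, and a count of 0 was read as allowing up to 3. Members named are the 8 with most UMIs, those under 10 CPM, the paralogues, the core genes without a named feature and, per comparison, the 3 highest and the 3 lowest log2 ratios; RPS27A, RPS27 and FAU were named after their values were seen. Some genes that this rule names are not reported here. Of other lists, up to 4 genes with the largest change are named. The members, lists and comparisons were chosen with earlier results of these data known. Transcript starts were read from NCBI RefSeq gene models on Mmul_10 by gene symbol (63 of 65 members), with curated transcripts before predicted ones and then the longest. Python 3.11.15, numpy 2.4.6, scipy 1.17.1, pandas 2.3.3 and matplotlib 3.10.9 were used, and the ratios were tested on simulated data. Alternatives changed the denominator, members, cell filters, marker thresholds, depth, fold and pseudocount.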

Additional observations from a re-analysis of the deposited data

Results flagged for a closer look

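Features that the symbol rule does not reach, but whose identifiers carry the name of a ribosomal protein gene, held 4.98% of the UMIs of CD3E+ cells. They stand out as signal outside the members and enter no count of members above. Barcodes over the mitochondrial limit, which are outside the cells analysed, had a member share of 14.6%, against 24.2% in CD3E+ cells. The median of these 275 barcodes was 5.83%. Mitochondrial genes held 26.2% of their UMIs, against 5.28% in CD3E+ cells, and stay in the total. A lower member share is thus partly set by how these barcodes were chosen.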

How the results depend on the processing

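Values are log2 ratios of the member share unless said otherwise, and the share differences by GZMB, EOMES and MKI67 kept their sign in all 13 alternatives each, as did that by CCR7. Of 160 values, 76 stayed within the counting interval of the reported value (counts within 1.5 times), 80 moved and 4 changed sign. Most of the 76 were counts of members, which have no such interval, and most of the shares and share ratios moved. Counting intervals are narrow here, so small moves pass them. Leaving out cells under 2000 UMIs, the denominator of features with a symbol and the within-class tag values were chosen after seeing the data. The causes of these moves were not tested.

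Without mitochondrial UMIs the ratios were 0.32 (CCR7), 0.0519 (TRAV10) and 0.27 (UMIs per cell), and without cytotoxic and receptor variable genes too, 0.31, -0.45 (GZMB), 0.0517 and 0.26. With features added by identifier they were 0.33 (CCR7), -0.47 (GZMB) and -0.39 (MKI67), and without the 5 top members 0.33, -0.48, -0.0778 (EOMES) and 0.26 (UMIs per cell). The mean of per-cell shares gave 0.36 (CCR7), -0.48 (GZMB), -0.0556 (EOMES), 0.0533 (TRAV10), -0.36 (MKI67) and 0.36 (UMIs per cell). A mitochondrial limit of 10% gave -0.47 (GZMB), -0.0798 (EOMES), -0.39 (MKI67) and 0.25 (UMIs per cell). At equal UMIs per cell in 10 bins the ratios were 0.30 (CCR7), -0.43 (GZMB), 0.0344 (TRAV10) and -0.40 (MKI67). After thinning to 2000 UMIs they were 0.31, -0.53, -0.0866 (EOMES), 0.0191 (TRAV10) and -0.36. Higher marker thresholds gave -0.52 (GZMB), 0.0148 (TRAV10) and -0.60 (MKI67). Without cells with another marker the ratios were 0.14 (CCR7), -0.10 (EOMES), -0.40 (MKI67) and, with the sign changed, -0.00044 (TRAV10). Without the cells with most UMIs and B gene cells they were 0.37, -0.52 (GZMB), 0.0280 (TRAV10) and -0.39 (MKI67). Without cells under 2000 UMIs they were 0.32 (CCR7), -0.47 (GZMB), 0.0381 (TRAV10), 0.18 (UMIs per cell), 0.22 (CD4 tag) and, with the sign changed, -0.0041 (CD8 tag). Over features with a symbol they were 0.34 (CCR7), -0.50 (GZMB), -0.40 (MKI67) and 0.33 (UMIs per cell). Ordering by non-member UMIs gave 0.0050. The tag ratios, 0.25 (CD4) and 0.01 (CD8), changed sign within CCR7+GZMB- cells to -0.0514 and -0.0693, and within CCR7-GZMB+ cells were 0.17 and 0.0903.

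The share of all CD3E+ cells, 24.2%, was 24.1% in all kept cells, 23.8% in all barcodes, 24.8% at a mitochondrial limit of 10%, 29.2% with features added by identifier, 23.4% as a mean over cells, 25.6% without mitochondrial UMIs, 24.4% without cells under 2000 UMIs and 31.4% over features with a symbol.

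At 1.5-fold, members past the fold by CCR7 numbered 1 higher and 0 lower, by GZMB 0 higher and 8 lower, by EOMES 0 lower, by MKI67 0 lower and by UMIs per cell 1 higher. As shares of member UMIs instead of all UMIs they were 1 higher and 2 lower by CCR7, 4 higher and 2 lower by GZMB, 6 higher and 0 lower by MKI67, and 2 higher and 3 lower by UMIs per cell. With no minimum level, TRAV10 gave 1 higher and 1 lower. The share of all genes past the fold under each of these rules stands beside the counts in the comparison of single members.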

Other observations

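Of the 12 core genes that only an identifier names, RPS19 had log2 ratios of 0.42 by CCR7 and -0.60 by GZMB, RPL30 had 0.41 and -0.58, and RPL14 had 0.43 and -0.66. RPL41 had 1769 UMIs (58.7 CPM), below the minimum of 100 CPM set for the members. Its ratio was -0.39 by UMIs per cell and -0.60 by MKI67, where the lowest of the 61 members had -0.12 and -0.54. RPS27A, at 6945 CPM through its identifier, also lay below these members by MKI67 (-0.56). No interval was computed for these ratios.

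Genes other than members that start with a TOP run at the annotated start numbered 33 among those with at least 100 CPM. Their median log2 ratio was 0.19 by GZMB and -0.11 by CCR7, against 0.29 and -0.23 in the 831 without the run. By MKI67 the medians were 0.07 with and 0.21 without the run. By UMIs per cell they were nearly equal, at -0.245 and -0.238. Members with and without the run at the start had medians of -0.47 and -0.46 by GZMB.

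Barcodes with fewer than 200 genes numbered 33 and had a member share of 1.59% and a mitochondrial share of 63.5%. The 14 barcodes with over 4000 genes had a member share of 24.5%. Kept cells with no CD3E UMI (290) had 19.1%, and the 86 cells with B cell genes 20.6%.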
